A study of Drosophila melanogaster with 23 samples.

Results

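Transcription of 5 genes at the core of the Drosophila microRNA pathway was followed through the depletion of the siRNA arm and of the nuclear lamina in Kc167 cells. The genes are drosha, pasha, Dcr-1, AGO1 and gw. They were taken by FlyBase symbol from the 17659 genes of the count table, and all 5 passed the filter on low counts in every experiment. The rule names them by symbol, with earlier results of these data known.

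A microRNA starts as a hairpin inside a longer RNA polymerase II transcript. In the nucleus the RNase III enzyme Drosha, bound to its double-stranded RNA binding partner Pasha, cuts the hairpin out, and Dicer-1 trims it to a short duplex in the cytoplasm. Argonaute1 keeps 1 strand of the duplex, and GW182, the product of gw, ties the loaded Argonaute1 to the deadenylase and decapping complexes that silence the target mRNA. The siRNA arm of the fly runs in parallel with its own Dicer and Argonaute, Dicer-2 and AGO2, so each arm can be depleted while the other is measured.

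Kc167 is a female embryonic cell line with haemocyte features. Newly made RNA was labelled with 5-ethynyl uridine (0.2 mM, 1 h), tagged with biotin, captured on beads and sequenced (neuRNA-seq), which gave 23 libraries in 3 experiments, each with its own mock transfected cells. In experiment 1, 3 mock libraries were set against 3 in which AGO2 was depleted with an siRNA (AGO2 KD) and 3 in which LaminB, the product of Lam, was depleted with dsRNA (LaminB KD). In experiment 2, 2 mock libraries were set against 2 with an siRNA to the 5′UTR of AGO2 (si5UTR), 2 with this siRNA plus a tagged wild-type AGO2 construct without the AGO2 UTRs (si5UTR+AGO2), and 2 with this siRNA plus the catalytic mutant construct (si5UTR+V966M). In experiment 3, 3 mock libraries were set against 3 in which Dicer-2 was depleted with dsRNA (Dcr-2 KD). Per the study's methods, mock cells were transfected without siRNA or dsRNA. Loss of the target and delivery of siRNA or dsRNA therefore cannot be told apart in contrasts with mock. LaminB KD against AGO2 KD also sets dsRNA against siRNA. The constructs were transfected from an expression vector, so their level is not that of the AGO2 gene itself. No label says whether replicates came from separate cultures, and p-values below measure only the spread between these libraries.

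Libraries held 5215481 to 15641835 reads assigned to genes, and each depleted gene was lower in its own knockdown. AGO2 fell by 0.47 on the log2 scale in AGO2 KD (edgeR adjusted p = 0.000312) and by 0.91 with si5UTR (adjusted p = 4.9e-05), Lam fell by 1.63 in LaminB KD (adjusted p = 4.1e-09), and Dcr-2 fell by 0.53 in Dcr-2 KD (edgeR adjusted p = 0.0592). These are changes in nascent RNA and not in protein. The haemocyte genes srp (1738 to 2330 CPM, reads scaled to a common library size), Hml (1204 to 2381 CPM) and Pxn (519 to 1187 CPM) were high in all 23 libraries. The other 5 of 8 haemocyte markers were low, crq at 27.6 to 58.3 CPM, Col4a1 at 8.11 to 53.4, vkg at 5.23 to 30.9, eater at 1.70 to 11.4 and NimC1 at or under 1.41 CPM. Sxl was at 777 to 1272 CPM and the male-specific roX1 and roX2 RNAs at or under 2.75 CPM. The third dosage compensation marker, msl-2, was at 14.4 to 30.2 CPM.

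The 5 genes differ in size and structure, which matters because reads were counted over the whole gene body with introns included. In the dm6 assembly, drosha lies on chromosome 2R from 7932429 to 7936840 on the plus strand and is 2.77% intron. The pasha gene lies on 3R from 31617977 to 31622217 on the plus strand, and its end overlaps the gene kek6 on the same strand, so its count is uncertain there. Dcr-1 lies on 3R from 22734007 to 22741091 on the minus strand and is 2.43% intron. AGO1, the longest of the 5 at 14703 bases, lies on 2R from 13943387 to 13958089 on the minus strand and is 43.7% intron, with a GC content of 41.8%. The gw gene lies on the small chromosome 4 from 649041 to 660608 on the minus strand, is 46.9% intron, has a GC content of 37.9% and holds an INE-1 transposon fragment. The coordinates come from the Ensembl annotation of the same assembly.

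The effector genes AGO1 and gw had far higher levels of captured nascent RNA than the processing genes drosha, pasha and Dcr-1. AGO1 and gw are also longer, and lower in GC content (41.8% and 37.9%) than the processing genes (47.9% to 52.3%). The part of gene length and base composition in the difference in level was not tested. Per kilobase of gene body, AGO1 reached 71.7 ± 2.71 CPM (SD, n = 3) in the mock libraries of experiment 1, and gw reached 57.9 ± 1.71 CPM per kb. Dcr-1 followed with 25.3 ± 1.27 CPM per kb, and pasha with 16.6 ± 1.76 and drosha with 16.4 ± 0.71 CPM per kb did not differ beyond their spread. Over all 8 mock libraries the ranges of AGO1 (62.7 to 74.3 CPM per kb), gw (51.2 to 59.6) and Dcr-1 (24.2 to 31.9) did not overlap, and those of pasha (10.3 to 18.6) and drosha (15.6 to 20.9) did. Among the genes tested with a known length, AGO1 stood at percentile 93.5 to 95.1 of level per kilobase, gw at 90.6 to 92.5, Dcr-1 at 72.4 to 77.7, drosha at 53.5 to 65.3 and pasha at 43.8 to 57.9, depending on the experiment.

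**Figure D1:**
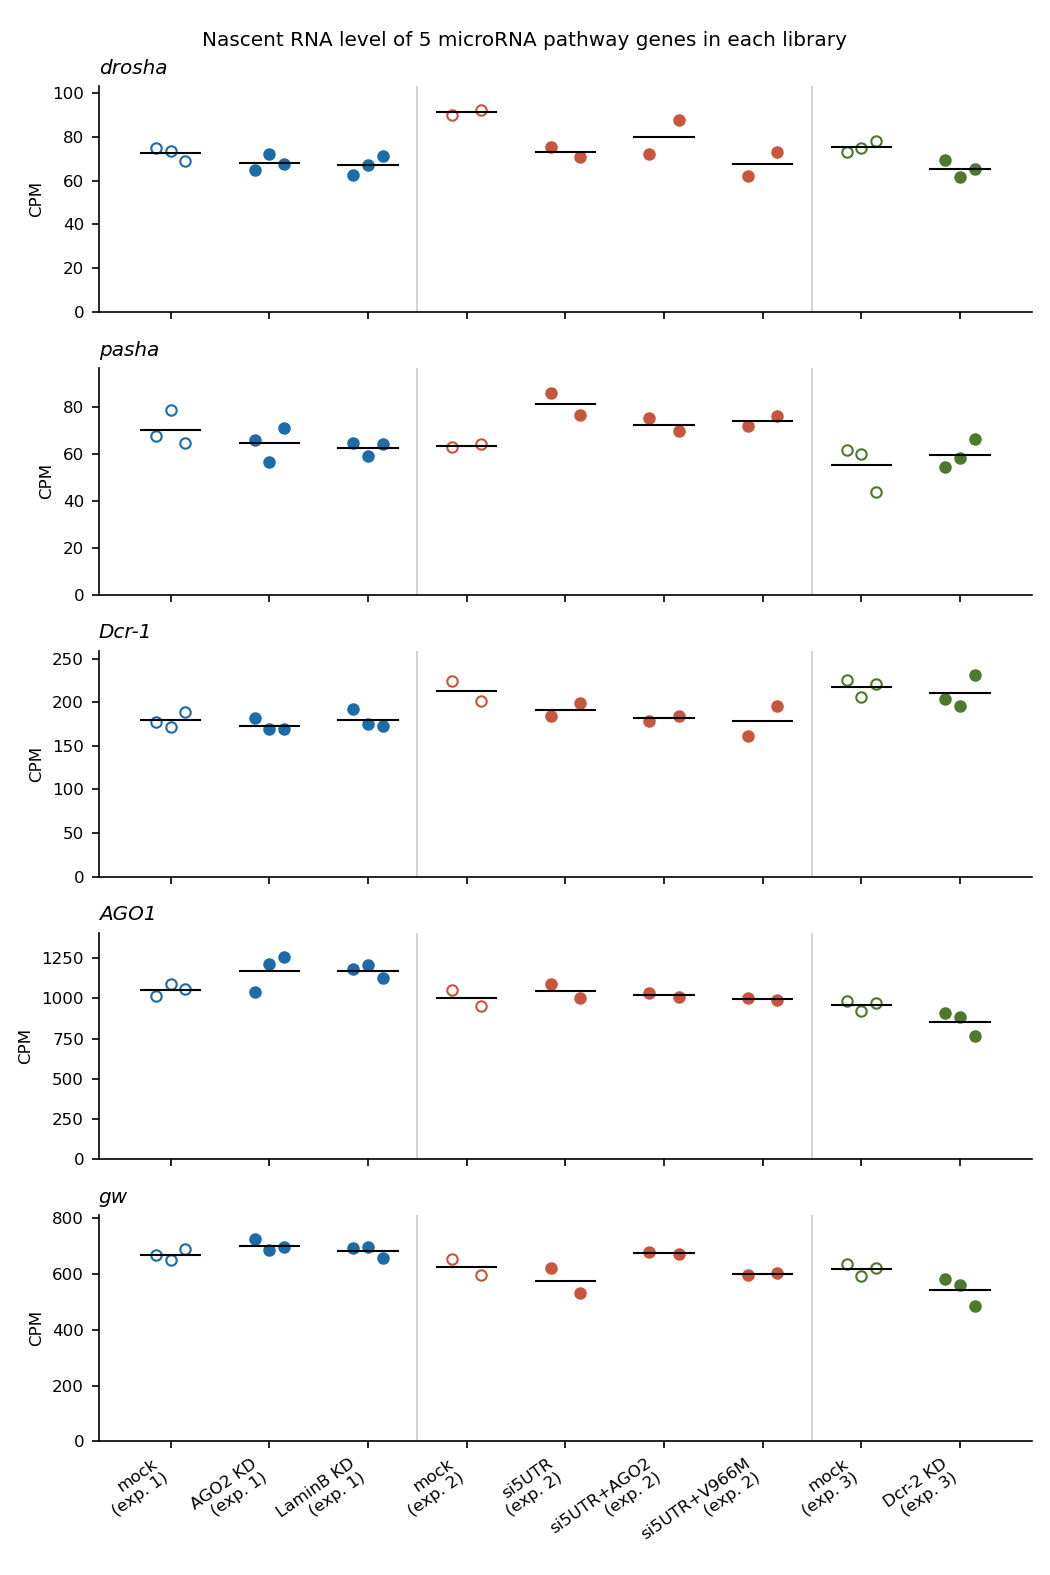
Nascent RNA level of drosha, pasha, Dcr-1, AGO1 and gw in CPM (vertical axis, from 0) in each of the 23 libraries, by group and experiment; open circles are mock, filled circles are treated and lines are group means. AGO1 lies between 765 and 1258 CPM and drosha between 61.4 and 92.0 CPM, and all 6 treated libraries of experiment 2 lie below mock for drosha and above it for pasha.

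The first question was whether the microRNA genes respond when AGO2 is lost. None of the 5 genes was called in AGO2 KD: 0 of 5 by edgeR's quasi-likelihood test at an adjusted p under 0.1, against 10.2% of the 8142 genes tested (7.92% up and 2.32% down). The count was 1 of 5 at an unadjusted p under 0.05, where 19.9% of all genes passed. With DESeq2 it was 0 of 5, beside 939 genes over all. The estimated log2 fold changes ran from -0.12 to 0.15, and their 95% intervals together from -0.36 to 0.28. The median over the 5 genes was -0.05, beside 0.00 over all genes tested.

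AGO1, the microRNA Argonaute, came closest to a call. Its level in the mock libraries was 1013, 1092 and 1060 CPM. In AGO2 KD it was 1041, 1211 and 1258 CPM. AGO2 KD replicates 2 and 3 lay above all mock libraries, and replicate 1 lay inside their range. The log2 fold change was 0.15 ± 0.06 (SE, 95% interval 0.02 to 0.28, edgeR adjusted p = 0.184). Without AGO2 KD replicate 1 it was 0.23 and passed the test (adjusted p = 0.00804), while after a correction for gene-body length and GC content it was -0.01 (adjusted p = 0.955). AGO2 KD replicate 1 was also the library in which AGO2 itself was highest of the 3, at 238 CPM against 218 and 217 CPM. A link between the AGO2 level and the AGO1 value was not tested.

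The other 4 genes overlapped with mock, so that none of the 5 had separate ranges, where 28.6% of all genes did. For gw, the silencing adaptor, the AGO2 KD libraries held 725, 687 and 696 CPM, and the mock libraries 669, 650 and 689 CPM (log2 fold change 0.07, 95% interval -0.04 to 0.18). Dcr-1 was at 182, 169 and 169 CPM in AGO2 KD, beside 177, 171 and 189 CPM in mock (-0.05, interval -0.21 to 0.11). Neither gene was separated from mock beyond the spread between libraries.

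The nuclear processing pair was measured with fewer reads. The drosha gene had log2 fold change -0.09 (interval -0.29 to 0.11), the AGO2 KD libraries holding 64.8 to 71.9 CPM where mock held 68.8 to 74.7 CPM. Its partner pasha had -0.12 (interval -0.36 to 0.11), the libraries holding 56.9 to 71.4 CPM where mock held 64.7 to 78.9 CPM. The ranges overlapped for both genes. Summed haemocyte markers were at 3983 to 4338 CPM in AGO2 KD, below the 4553 to 4973 CPM of mock, and their part in these values was not tested. In bulk libraries such as these, fewer cells of a kind and less RNA per cell cannot be told apart.

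**Figure D2:**
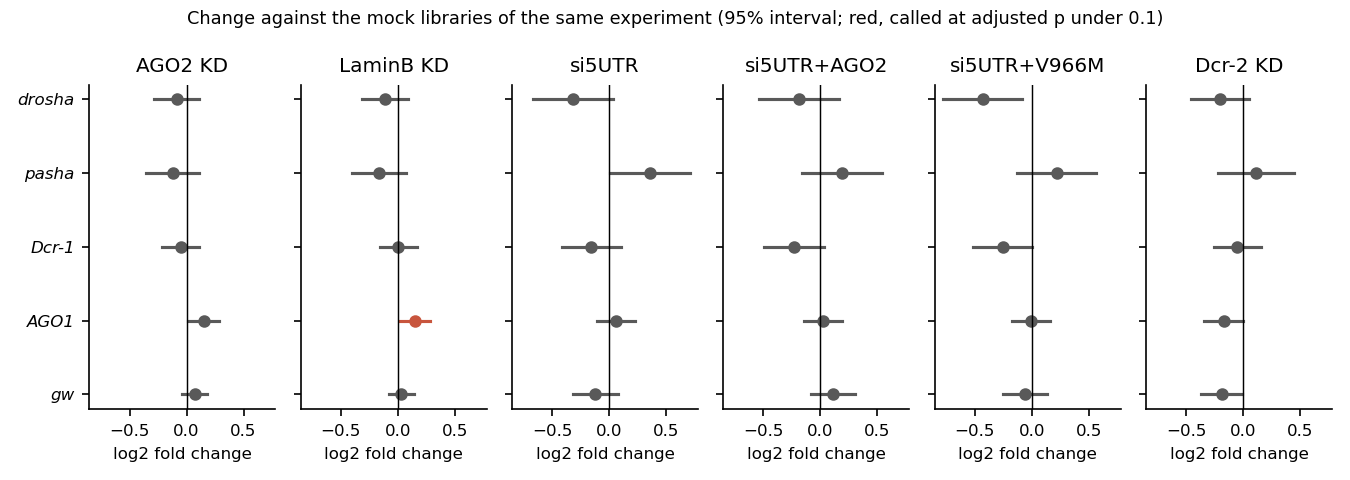
Log2 fold change of each gene (points, horizontal axis) with its 95% interval (lines) in 6 treatments, each against the mock libraries of its own experiment; red marks a call at an edgeR adjusted p under 0.1. AGO1 in LaminB KD is the only call, at 0.15 (-0.12 after the length and GC correction), and the intervals are widest for drosha and pasha in experiment 2.

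The siRNA to the 5′UTR of AGO2 left 159 and 161 CPM of AGO2 RNA, beside 282 and 321 CPM in mock, and with the constructs it stood at 379 to 480 CPM. None of the 5 genes was called in si5UTR against mock (0 of 5 by edgeR, 1 at an unadjusted p under 0.05, 0 with DESeq2), where 1.23% of 8727 genes were called. The constructs gave the same count of 0: against mock, 0 of 5 with si5UTR+AGO2 (0.149% of all genes, 0 at an unadjusted p under 0.05, 0 with DESeq2) and 0 of 5 with si5UTR+V966M (0.63%, 1 and 0). Setting the constructs against si5UTR alone also gave 0 of 5 for si5UTR+AGO2 (0.63%, 1 at an unadjusted p under 0.05 by edgeR, 0 with DESeq2) and 0 of 5 for si5UTR+V966M (0.264%, 0 and 0), and 0 of 5 differed between the constructs (0.16%, 0 and 0). Over all genes, 8.49%, 4.51%, 9.34%, 6.41%, 8.53% and 8.83% had an unadjusted p under 0.05 in these comparisons, in the order given. With 2 libraries a group, the intervals were wider than in experiment 1 and reached from -0.67 to 0.71 in si5UTR against mock.

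In experiment 2 the nuclear processing genes had values on opposite sides of mock, and neither passed the test. The drosha gene was at 90.0 and 92.0 CPM in mock, 75.3 and 70.8 CPM in si5UTR, 72.0 and 87.7 CPM in si5UTR+AGO2 and 62.1 and 72.9 CPM in si5UTR+V966M. All 6 libraries that received the siRNA lay below both mock libraries, with log2 fold changes of -0.32 (edgeR adjusted p = 0.671), -0.19 (adjusted p = 1) and -0.43 (adjusted p = 0.413). With the wild-type construct drosha differed from si5UTR by 0.13 (interval -0.22 to 0.48).

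Its partner lay on the other side. The pasha gene was at 62.9 and 64.4 CPM in mock, 86.4 and 77.0 CPM in si5UTR, 75.5 and 69.8 CPM in si5UTR+AGO2 and 71.9 and 76.5 CPM in si5UTR+V966M. All 6 lay above mock, with log2 fold changes of 0.36 (interval 0.01 to 0.71, edgeR adjusted p = 0.579), 0.19 and 0.22. Dcr-1 was lower in all 6 libraries (161 to 199 CPM) than in mock (225 and 201 CPM). That makes 3 of 5 genes on 1 side of both mock libraries in all 6, where 7.98% of all genes tested were, 4.37% of them lower and 3.61% higher. The 6 libraries share the siRNA, and all comparisons share the same 2 mock libraries. Cell type markers also differed in experiment 2. The summed haemocyte markers were at 5169 to 5687 CPM in mock, 4586 to 4758 CPM in si5UTR, 5273 to 5686 CPM in si5UTR+AGO2 and 4315 to 4507 CPM in si5UTR+V966M. The neuron markers summed to 150 to 151 CPM in mock, 189 to 199 CPM in si5UTR, 169 to 171 CPM in si5UTR+AGO2 and 121 to 142 CPM in si5UTR+V966M. Their part in the values of the 3 genes was not tested.

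The drosha and pasha values were not split this way in the other AGO2 knockdown. In AGO2 KD both overlapped with mock, and the effect on pasha differed between AGO2 KD and si5UTR by -0.48 (interval -0.86 to -0.10, edgeR adjusted p = 0.44). Over the 5 genes, 0 differed between these AGO2 siRNAs by edgeR (0.0748% of 9357 genes) and 0 with DESeq2. At an unadjusted p under 0.05 the count was 1, where 8.45% of all genes passed.

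The effector genes were not called in experiment 2, and AGO1 overlapped with mock in each treated group. AGO1 held 1053 and 955 CPM in mock and 1088 and 1004 CPM in si5UTR (log2 fold change 0.06, interval -0.11 to 0.23), and 991 to 1032 CPM with the constructs. The gw gene was at 655 and 598 CPM in mock, 620 and 533 CPM in si5UTR, 680 and 671 CPM in si5UTR+AGO2 and 597 and 604 CPM in si5UTR+V966M. For gw, si5UTR+AGO2 differed from mock by 0.11 (interval -0.08 to 0.30) and from si5UTR by 0.23 (interval 0.04 to 0.42, edgeR adjusted p = 0.597). Neither difference was called.

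Depletion of LaminB changed far more genes, 29.2% of those tested, and 1 of the 5 microRNA genes with them. AGO1 was up-regulated, with 1181, 1211 and 1125 CPM in LaminB KD and 1013, 1092 and 1060 CPM in mock. The groups did not overlap, as for 19.9% of all genes in that direction. The log2 fold change was 0.15 ± 0.06 (SE, interval 0.02 to 0.29, edgeR adjusted p = 0.0958), a rise of 11.1%, where 16.7% of all genes were called up. DESeq2 also called 1 of 5, beside 2413 genes over all. The call was lost when any of the 6 libraries of these groups was left out (0.12 to 0.18, adjusted p 0.107 to 0.31) and with no filter on low counts (0.14, adjusted p = 0.104).

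The remaining 4 genes were not called in LaminB KD. Dcr-1 was at 192, 175 and 172 CPM, beside 177, 171 and 189 CPM, with log2 fold change 0.00 (interval -0.16 to 0.17). The drosha gene had -0.11 (interval -0.31 to 0.09) and pasha -0.16 (interval -0.40 to 0.07), with overlapping ranges. The gw gene was at 695, 698 and 657 CPM, against 669, 650 and 689 CPM in mock (0.03, interval -0.08 to 0.14). The median of the 5 was 0.00, as over all genes tested. Directly against AGO2 KD, with which LaminB KD shares its mock libraries, 0 of 5 genes differed by edgeR (20.3% of all genes). The count was also 0 at an unadjusted p under 0.05 (28.6% of all genes) and 0 with DESeq2. The difference in AGO1 was 0.00 (interval -0.13 to 0.14, and -0.11 after the length and GC correction).

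AGO1 and gw are the long, intron-rich and AT-rich members, and their values in LaminB KD moved with gene structure. When a smooth trend on gene-body length and GC content was taken out of each library, AGO1 went from 0.15 to -0.12 (edgeR adjusted p = 0.203) and gw from 0.03 to -0.21, which passed the test in the downward direction (adjusted p = 0.0178). The short genes moved less, Dcr-1 from 0.00 to 0.04 and drosha from -0.11 to -0.02. The number of calls in LaminB KD was 1 of 5 under both fits, for different genes and in opposite directions. Which of the fits is nearer to transcription was not tested. Over all genes, the correction moved the share of LaminB KD calls that were up from 57.1% to 48.1%, and in AGO2 KD from 77.3% to 59.0%.

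**Figure D3:**
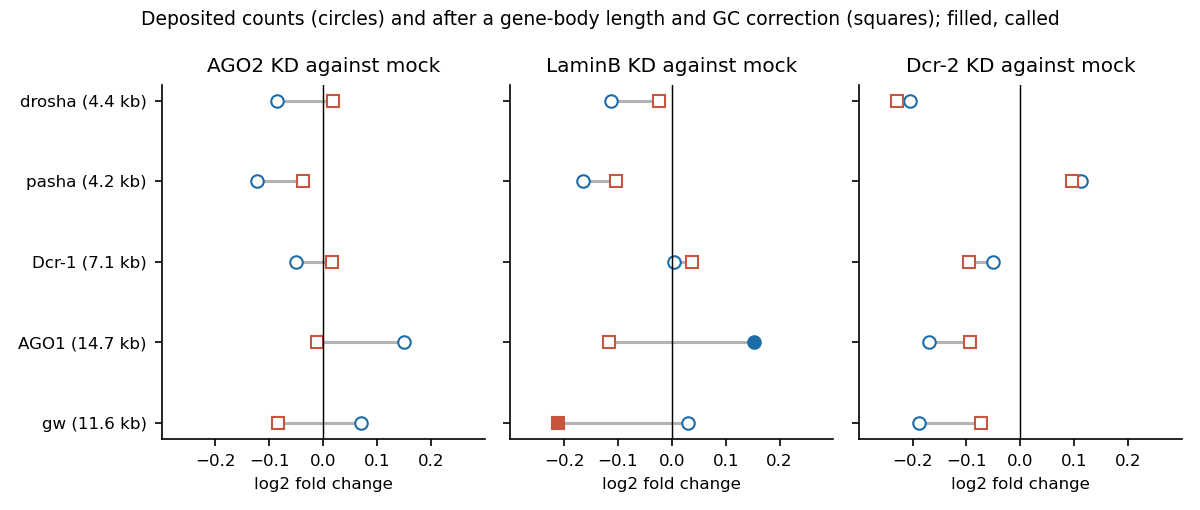
Log2 fold change against mock (horizontal axis) of each gene in AGO2 KD, LaminB KD and Dcr-2 KD, from the deposited counts (blue circles) and after the gene-body length and GC correction (red squares); filled symbols passed the test, and gene-body lengths stand beside the names. The correction shifts AGO1 and gw more than the other genes in LaminB KD, from 0.15 to -0.12 and from 0.03 to -0.21.

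Cell type markers also differed in LaminB KD. The sum of 4 neuron markers was 131 to 137 CPM in mock, 166 to 187 CPM after AGO2 depletion and 279 to 287 CPM after LaminB depletion, mainly from brp and elav, with nSyb at or under 4.81 CPM and Syt1 at or under 1.19 CPM in every library. The 8 haemocyte markers summed to 5114 to 5254 CPM in LaminB KD and 4553 to 4973 CPM in mock. The 4 muscle markers summed to 522 to 587 CPM and 467 to 510 CPM in the same order, mainly from Mef2. Over all libraries Mef2 was at 268 to 571 CPM, Mhc at or under 18.1, sls at or under 20.5 and bt at or under 2.96 CPM. Sxl was at 1151 to 1241 CPM in LaminB KD and 976 to 1075 CPM in mock. The part of these markers in the AGO1 value was not tested.

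The siRNA counterparts of AGO1 and Dcr-1 were up-regulated on LaminB depletion. They were 2 of the 4 genes in the siRNA arm list, where 16.7% of all genes were called up. The other 2 were not called, Hen1 at 0.11 (edgeR adjusted p = 0.675) and r2d2 at 0.03 (adjusted p = 0.923). AGO2 rose by 0.34 (edgeR adjusted p = 0.00237), from 301, 323 and 308 CPM in mock to 372, 421 and 386 CPM. Dcr-2 rose by 0.43 (adjusted p = 0.000816), from 147, 159 and 168 CPM to 207, 215 and 217 CPM. Both calls held in all 13 alternative analyses, and after the length and GC correction the changes were 0.22 and 0.35.

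AGO2 and Dcr-2 were also set against AGO1 and Dcr-1 as a ratio within each library. Both siRNA-arm genes had been called up in these same libraries, so the ratios are not separate support. The log2 ratio of Dcr-2 to Dcr-1 reads per kilobase was -0.16, 0.00 and -0.06 in mock and 0.22, 0.41 and 0.45 in LaminB KD, a mean difference of 0.43. The log2 ratio of AGO2 to AGO1 was -0.67, -0.67 and -0.70 in mock and -0.58, -0.44 and -0.46 in LaminB KD, a mean difference of 0.18. The 3 LaminB KD libraries lay above the 3 mock libraries for both ratios. The two-sided exact permutation test gave p = 0.1 for each of the 2 ratios (adjusted p = 0.1). This is the smallest value that 3 against 3 libraries can give, so the test could not pass the threshold of under 0.1.

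**Figure D4:**
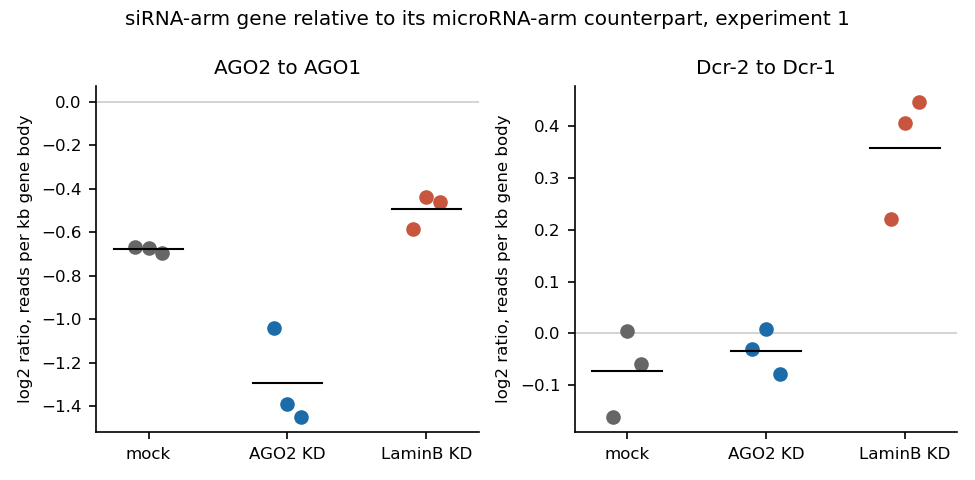
Log2 ratio of reads per kilobase of gene body (vertical axis) for AGO2 to AGO1 (left) and Dcr-2 to Dcr-1 (right) in the libraries of experiment 1; points are libraries and lines are means. The 3 LaminB KD libraries lie above the 3 mock libraries in both panels, and the low AGO2 to AGO1 ratio in AGO2 KD comes with the targeted gene itself.

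Depletion of Dicer-2 asked whether the loss of siRNA production, rather than of AGO2, touches the microRNA genes. None of the 5 was called (0 of 5 by edgeR, 1 at an unadjusted p under 0.05, 0 with DESeq2), where 2.02% of 7733 genes were. At an unadjusted p under 0.05 the share of all genes was 12.6%. AGO1 was at 987, 922 and 971 CPM in mock and 907, 887 and 765 CPM in Dcr-2 KD (log2 fold change -0.17, interval -0.34 to 0.00, edgeR adjusted p = 0.397). The gw gene was at 638, 593 and 623 CPM in mock and 582, 559 and 484 CPM in Dcr-2 KD (-0.19, interval -0.37 to -0.01, adjusted p = 0.362).

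Both effector genes were lowest in Dcr-2 KD replicate 3, which was also the shallowest library and the one with the lowest Dcr-2 (129 CPM, against 173 and 188 CPM in the other two). Without it the log2 fold changes were -0.10 for AGO1 and -0.11 for gw, and after the length and GC correction -0.09 and -0.07. The part of depth and of the Dcr-2 level in the effector values was not tested. With drosha, at 73.1, 74.6 and 77.8 CPM in mock and 69.2, 61.4 and 65.1 CPM in Dcr-2 KD (-0.20, interval -0.46 to 0.05), 3 of 5 genes lay below mock in all 3 Dcr-2 KD libraries, where 9.65% of all genes did. Summed muscle markers, mainly the single gene Mef2, were also lower, at 280 to 379 CPM in Dcr-2 KD and 400 to 439 CPM in mock. Their part in these values was not tested. Dcr-1, the paralog of the depleted enzyme, was at 226, 206 and 220 CPM in mock and 203, 195 and 231 CPM in Dcr-2 KD (-0.05, interval -0.26 to 0.16). The pasha value (0.11, interval -0.22 to 0.44) rested on mock replicate 12, at 43.8 CPM beside 61.7 and 60.1 CPM, and was -0.03 without it.

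AGO1 had opposite signs in experiments 1 and 3, and this difference was tested in 1 fit over both. The LaminB KD effect on AGO1 exceeded the Dcr-2 KD effect by 0.30 (SE 0.10, interval 0.08 to 0.51, edgeR adjusted p = 0.0706). This was 1 of 5 genes called where 15.2% of 8531 were. DESeq2 called 2 of 5, beside 1374 genes over all. The edgeR call on AGO1 was lost on leaving out 8 of the 12 libraries in turn (adjusted p up to 0.156), Dcr-2 KD replicate 3 among them (0.21). It held without LaminB KD replicate 3, mock replicate 11 or Dcr-2 KD replicates 1 or 2. After the length and GC correction the AGO1 difference was -0.05. For AGO2 KD the excess over Dcr-2 KD was 0.31 for AGO1 (interval 0.10 to 0.53, adjusted p = 0.108) and 0.25 for gw (interval 0.05 to 0.46, adjusted p = 0.191). That was 0 of 5 by edgeR (4.99% of all genes), with 2 at an unadjusted p under 0.05, where 15.8% of all genes passed. DESeq2 called both AGO1 and gw, among 638 genes over all. The AGO1 difference passed the test without AGO2 KD replicate 1 (0.39), Dcr-2 KD replicate 1 (0.37) or Dcr-2 KD replicate 2 (0.34), and was 0.07 after the length and GC correction. The mock libraries of experiments 1 and 3 were separate, and experiment and siRNA or dsRNA target cannot be told apart in these contrasts.

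Calls were also counted in lists of genes around the 5 members. Of 36 other genes of microRNA biogenesis, Argonaute loading, deadenylation, decapping and microRNA decay, all of them tested, 3 were up and 2 down in AGO2 KD, 3 were up and 10 down in LaminB KD, and 1 was up and 1 down in Dcr-2 KD. The shares of all genes called were 7.92% up and 2.32% down in AGO2 KD, 16.7% up and 12.5% down in LaminB KD, and 1.38% up and 0.634% down in Dcr-2 KD. Their median log2 fold change was -0.05 in AGO2 KD, -0.13 in LaminB KD and -0.05 in Dcr-2 KD, beside medians of all genes of 0.00, 0.00 and 0.01. In experiment 2, 0 of 36 were called in any of the 6 comparisons by edgeR, with 0 to 4 at an unadjusted p under 0.05 and 0 to 1 with DESeq2. Over all genes, 4.51% to 9.34% had an unadjusted p under 0.05 in those comparisons.

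Of the chaperones that load small RNA duplexes into Argonaute, all 6 were down-regulated in LaminB KD: Hsp83, the fly Hsp90 (-0.49, edgeR adjusted p = 2.2e-06), the constitutive Hsp70 protein Hsc70-4 (-0.44, adjusted p = 0.00012), the Hsp90 partner Cdc37 (-0.45), the DnaJ protein Droj2 (-0.39), the co-chaperone p23 (-0.37) and Stip1, the fly Hop (-0.36). Their median was -0.42. These proteins serve many other clients besides Argonaute. After the length and GC correction 3 of the 6 calls remained, with a median of -0.31, and Cdc37, p23 and Stip1 were lost. Hsp83 was also down-regulated in AGO2 KD (-0.26, adjusted p = 0.00195) and Dcr-2 KD (-0.48, adjusted p = 0.0494), with 1 of 6 called in each.

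Downstream of gw, the CCR4-NOT deadenylase had 2 of 8 genes up and 0 down in AGO2 KD and in LaminB KD. Its nuclease Pop2 was up-regulated by 0.41 in AGO2 KD (edgeR adjusted p = 0.00178), by 0.30 in LaminB KD (adjusted p = 0.0107) and by 0.42 in Dcr-2 KD (adjusted p = 0.0433). The scaffold Not1 was up-regulated by 0.13 and 0.18 in AGO2 KD and LaminB KD, and neither call remained after the length and GC correction (0.08 and 0.03). With that correction the list had 1 up and 1 down in AGO2 KD and 1 up and 2 down in LaminB KD: the deadenylase gene twin was called down in both (-0.29 and -0.24) and the subunit gene Not3 in LaminB KD (-0.25), whereas Pop2 stayed up (0.41 and 0.26). Of the 2 PAN2-PAN3 genes, the adaptor PAN3 was down-regulated in LaminB KD (-0.21, adjusted p = 0.0319).

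Among 9 decapping and P body genes, 1 was up and 2 down in LaminB KD and 1 up and 1 down in AGO2 KD. The decapping enhancer Edc3 was up-regulated in both, by 0.31 and 0.26 in AGO2 KD and LaminB KD. The helicase me31B (-0.24) and its partner tral (-0.15) were down-regulated in LaminB KD, and the exonuclease gene pcm (-0.24) in AGO2 KD, a call that was lost after the length and GC correction (-0.15). Of the 8 biogenesis partners, 1 was called against mock in these 3 knockdowns, Tudor-SN, a nuclease of the silencing complex, in LaminB KD (-0.18, edgeR adjusted p = 0.0426). Directly against AGO2 KD, the RNA-binding protein gene Fmr1 was lower in LaminB KD (-0.27, adjusted p = 0.0153), and after the length and GC correction it was also called against mock (-0.25). Of the 3 microRNA tailing and decay genes (Tailor, Dora, Dis3l2), 0 were called in AGO2 KD, LaminB KD or Dcr-2 KD by edgeR, 0 had an unadjusted p under 0.05 and 0 were called by DESeq2. After the length and GC correction Dora was called down in LaminB KD (-0.24).

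**Figure D5:**
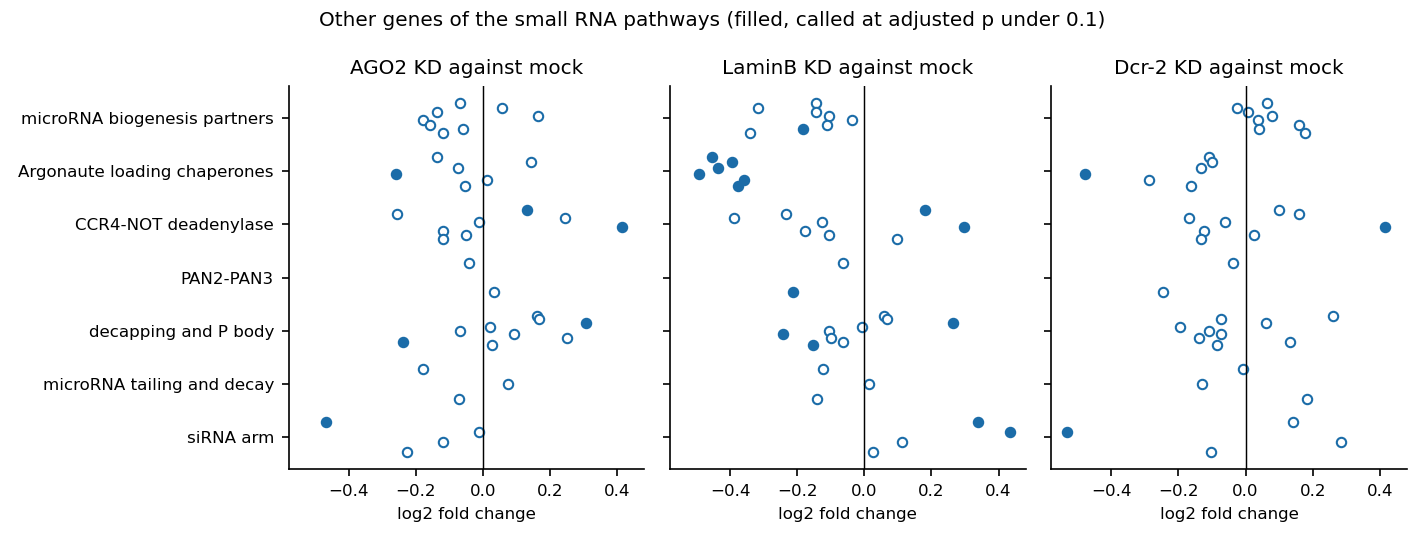
Log2 fold change against mock (horizontal axis) of each gene in 6 lists of the microRNA pathway and in the siRNA arm, in AGO2 KD, LaminB KD and Dcr-2 KD; each point is a gene, filled where called at an edgeR adjusted p under 0.1. The 6 loading chaperones lie between -0.49 and -0.36 in LaminB KD, and the lowest siRNA arm points in AGO2 KD and Dcr-2 KD are the targeted genes.

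The hairpins on which these proteins act were almost unseen in the count table. Of 253 microRNA genes, 228 had no read in any library, 25 had at least 1, and 2 passed the filter in an experiment. Each of these genes is annotated as the short hairpin, not as the longer primary transcript, so a row at 0 does not show a silent locus. Overlap with other genes on the same strand, where counts are uncertain, was not examined for these rows. The gene with most reads, chosen after its values were seen, was mir-317, on 3R from 10091126 to 10091217 on the plus strand, with 242 reads over 18 libraries and at most 40 in 1 library. Its mature arms, read from the RefSeq genome of the same assembly by the RefSeq annotation, are shown because this is the hairpin that could be tested in experiment 1, with the seed (bases 2 to 8) in capitals.
mir-317 5′ arm: uGGGAUACacccugugcucgcu
mir-317 3′ arm: uGAACACAgcuggugguauccagu
Its log2 fold change was 0.47 in AGO2 KD (edgeR adjusted p = 0.753) and 0.16 in LaminB KD (adjusted p = 0.899), and the intervals reached from -0.99 to 1.93 and from -1.32 to 1.64, so a change of the size seen in the 5 genes was not detectable at this depth.

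The members did not vary as a block across the 23 libraries. After the mean of each experiment was taken out, log2 CPM of AGO1 and gw went together (Pearson r = 0.56 over 23 libraries), as did drosha and Dcr-1 (r = 0.43), while pasha ran against gw (r = -0.39) and drosha (r = -0.38). The other pairs were between -0.26 and 0.33. These are descriptions over libraries that share treatments and mock cells. AGO1 and gw are also the 2 longest and most intron-rich of the 5 genes.

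Among 5131 genes with at least 20 CPM on average, the 3 most like AGO1 were Rnf11 (r = 0.88), bun (0.83) and cac (0.83). For gw they were lqf (0.81), gukh (0.79) and psq (0.79), and for Dcr-1 Lkb1 (0.80), Usp32 (0.79) and CG32104 (0.77). For drosha they were twr (0.79), Fkbp14 (0.77) and Hrb87F (0.75), and for pasha CG13690 (0.70), spag (0.67) and Smn (0.65). No other member was among the 3 nearest genes of any member.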

How the data were processed

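The authors deposited raw read counts per gene for 23 neuRNA-seq libraries (50 bp single-end reads). Per the labels and the study's methods, reads were trimmed with cutadapt 1.10, aligned to dm6 with HISAT2 2.0.4 and assigned with featureCounts 1.5.0-p3, stranded, to gene bodies including introns. The deposited lookup table gave the experiment of each library. Each experiment was fitted with edgeR 4.0.16 in R 4.3.3 (TMM, filterByExpr, quasi-likelihood F test, treatment as the only term, Benjamini-Hochberg over 8142, 8727 or 7733 genes, called at adjusted p under 0.1). Differences between experiments were interaction contrasts in 1 fit. CPM use TMM library sizes within an experiment. Standard errors are the log2 fold change over the square root of F. DESeq2 1.42.0, other filters and scalings, an mgcv 1.9.3 trend on gene-body length and GC content, and leaving out libraries were alternatives, and scripts were tested on simulated data. Of 17659 gene IDs, 17464 matched a symbol.

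The 5 members and all gene lists were chosen with earlier results of these data known. Named genes were all members, the targeted genes, list genes called in a knockdown against mock, and the 3 genes nearest each member by correlation. Some list genes without such a call were named too. These were the rest of the siRNA arm and of the tailing and decay list, and genes called only in another fit or contrast. Replicates differed by more than sampling noise (chi-square per degree of freedom 6.95 to 28.3). For precision, members had 283 to 16705 reads per library.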

Additional observations from a re-analysis of the deposited data

Results flagged for a closer look

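The change of AGO1 differed between LaminB KD and Dcr-2 KD by the test of the difference itself, by 0.30 on the log2 scale (interval 0.08 to 0.51, edgeR adjusted p = 0.0706). AGO1 was at 1125 to 1211 CPM in LaminB KD against 1013 to 1092 CPM in mock. It was at 765 to 907 CPM in Dcr-2 KD against 922 to 987 CPM in mock. All 3 LaminB KD libraries lay above mock, as for 19.9% of all genes. All 3 Dcr-2 KD libraries lay below mock, as for 9.65% of all genes. The same contrast was -0.05 after the gene-body length and GC correction and 0.21 (adjusted p = 0.156) without Dcr-2 KD replicate 3, the shallowest library with 5215481 reads. The part of gene length, base composition and depth in this difference was not tested further. Over the 8 mock libraries, no member had a library set apart from the rest by the Dixon test.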

How the results depend on the processing

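Counts of calls were unchanged or nearly so in 147 of 174 alternatives, whichever genes were called. The length and GC correction in LaminB KD is among these, with gw called down in place of AGO1 up. Of 820 alternative values of the members, 735 kept their direction and side of the threshold, or moved by under 1 SD for mock levels, 58 changed sign, 17 lost the call and 10 gained one. The cause of these changes was not tested. In AGO2 KD the count of called members was 0 to 1 when 1 library was left out, with AGO1 called without AGO2 KD replicate 1. In LaminB KD it fell from 1 to 0 at an adjusted p under 0.05 and with no filter on low counts, and was 0 in each fit without 1 library. The count of loading chaperones down fell from 6 to 3 with the length and GC correction. For the AGO2 KD effect minus the Dcr-2 KD effect the count rose from 0 to 2 with DESeq2, to 1 with RLE size factors and to 1 with no filter, and was 0 to 2 with 1 library left out. Calls over all genes in this contrast were 426, and 638, 483 and 547 in these fits. For the LaminB KD effect minus the Dcr-2 KD effect the count of members went from 1 to 0 at an adjusted p under 0.05 and with the length and GC correction. It went to 2 with DESeq2 and to 0 to 1 with 1 library left out.

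Signs changed mostly for values near 0. The length and GC correction reversed, in AGO2 KD, drosha (to 0.019), Dcr-1 (to 0.016), AGO1 (to -0.011) and gw (to -0.084). In LaminB KD it reversed AGO1 (to -0.117) and gw (to -0.212). For AGO1 it also gave -0.106 in LaminB KD against AGO2 KD, -0.01 in si5UTR, -0.004 in si5UTR+AGO2 and 0.008 in si5UTR+V966M against mock, 0.006 in si5UTR+AGO2 against si5UTR 0.017 in si5UTR+V966M against si5UTR and 0.012 between the constructs, where Dcr-1 was 0.086. In the AGO2 KD minus Dcr-2 KD contrast it gave 0.108 for Dcr-1 and -0.017 for gw, and in the LaminB KD minus Dcr-2 KD contrast -0.051 for AGO1 and -0.165 for gw. This correction was chosen for the contrasts between experiments after seeing the data. AGO1 in LaminB KD against AGO2 KD was -0.002 with DESeq2, -0.02 with no filter and -0.003 with only the 2 groups compared. Dcr-1 was -0.014 in LaminB KD with no filter, and 0.027 in the AGO2 KD minus Dcr-2 KD contrast with DESeq2 and with RLE size factors.

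Leaving out 1 library gave these ranges where a sign changed. In LaminB KD they were -0.05 to 0.033 for Dcr-1 and -0.003 to 0.052 for gw. In LaminB KD against AGO2 KD they were -0.078 to 0.019 for drosha, -0.134 to 0.031 for pasha and -0.087 to 0.052 for AGO1. In Dcr-2 KD they were -0.029 to 0.196 for pasha and -0.122 to 0.002 for Dcr-1. In si5UTR against mock AGO1 ran from -0.002 to 0.135, in si5UTR+AGO2 against mock from -0.044 to 0.092 and in si5UTR+V966M against mock from -0.069 to 0.068, where gw ran from -0.116 to 0.01. In si5UTR+AGO2 against si5UTR AGO1 ran from -0.095 to 0.022 and drosha from -0.02 to 0.265. In si5UTR+V966M against si5UTR gw ran from -0.047 to 0.172, drosha from -0.238 to 0.006 and Dcr-1 from -0.25 to 0.041. Between the constructs pasha ran from -0.025 to 0.087 and Dcr-1 from -0.169 to 0.122. For Dcr-1 the AGO2 KD minus Dcr-2 KD contrast ran from -0.053 to 0.059 and the LaminB KD minus Dcr-2 KD contrast from -0.02 to 0.093.

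Deviations of same-numbered libraries from their group means correlated weakly. By the numbers in the labels they were at -0.0446 to 0.0846 in experiment 1 and at 0.0018 to 0.0270 in experiment 2. By those of the lookup table they were at -0.0294 to 0.0270 in experiment 2 and at -0.0038 to 0.0532 in experiment 3. In experiment 1, same-numbered AGO2 KD and LaminB KD libraries were at 0.0668, 0.0846 and 0.0479. Differently numbered libraries of these groups were at -0.0758 to 0.0048. These values do not settle whether the replicate numbers pair the libraries. With the replicate number as a block, 0 members were called in AGO2 KD, 1 in LaminB KD (AGO1, 0.15, edgeR adjusted p = 0.0745), 0 in LaminB KD against AGO2 KD, 0 in si5UTR+V966M against si5UTR and, with the numbers of the lookup table and chosen after seeing the data, 0 in Dcr-2 KD. The block changed no call on a member. Calls over all genes went from 834 to 788 in AGO2 KD, 2374 to 2267 in LaminB KD, 23 to 49 in si5UTR+V966M against si5UTR and 156 to 281 in Dcr-2 KD.

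Counts over all genes also moved with the processing. Dcr-2 KD calls were 156, 314 with DESeq2, 374 with no filter, 62 at an adjusted p under 0.05 and 18 to 236 with 1 library left out. Calls in si5UTR against mock were 107, 199 with DESeq2, 219 with no filter and 78 to 218 with 1 library left out. AGO2 KD calls were 834, and 502 to 1008 with 1 library left out. Among single genes of the lists, the call on Not1 in AGO2 KD held in 5 of 13 alternatives, on pcm in AGO2 KD in 7 of 13, and in Dcr-2 KD on Dcr-2 in 7, on Hsp83 in 8 and on Pop2 in 9 of 12. With the length and GC correction, calls up and down went from 645 and 189 to 458 and 318 in AGO2 KD and from 107 and 49 to 138 and 36 in Dcr-2 KD. Mock levels of the members moved by less than 1 SD with total counts in place of TMM. The depth limits drosha and pasha most, with 351 to 1168 and 283 to 1219 reads per library.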
